A study of Mus musculus with 12 samples.

Results

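In the retinas of 12 mice, 8 genes were read at a clear level in some mice and at 0 or far lower in others, also within one condition. They were the processed pseudogenes Gm13394 and Gm6969, the long noncoding RNA genes Gm14268, Gm14216 and A830036E02Rik, the gene model Gm5148, the tripartite motif gene Trim12a and the serpin gene Serpina3f. These are 8 of 54146 genes in the count files, and all 8 were among the 18628 genes with enough counts to be tested. They were chosen from these same counts, for their pattern of high and low mice, so their levels, and where they fall in fits over all genes, are given as a description and not as evidence. The study deleted Otx2, a homeodomain transcription factor gene, in adult photoreceptors, and sequenced whole-retina RNA from 12 mice, 1 library per mouse. Mice 1 to 3 were the control at age P30 (postnatal day 30). Mice 4 to 6 (P32), 7 to 9 (P34) and 10 to 12 (P38) were conditional knockouts (cKO; Crx-CreERT2;Otx2 flox/flox) taken 2, 4 and 8 d after a single tamoxifen injection at P30. The inducible Cre is driven by the Crx promoter, which is active in photoreceptors, and the Otx2 gene is left in place in the other retinal cells. The paper nevertheless reports less OTX2 protein in the retinal pigment epithelium of the cKO mice, and RNA of that tissue is part of these samples. Age, tamoxifen and the deletion change together in this design and cannot be told apart. The labels name the P30 mice only as control, the study places them at day 0 of the tamoxifen course, and their Cre genotype is not given in the sources used here. All strains of the study were kept on a 129/SV background and both sexes were used, whereas the reads were aligned to mm10, the genome of the C57BL/6J strain.

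A processed pseudogene is a copy of a messenger RNA that was written back into the genome, usually without introns and far from its parent gene. A short read from such a copy can be told from a read of the parent only where the sequences differ, and HTSeq counts a read for a gene only if it aligned to a single place. Tandem families raise the same question. The Trim5, Trim12, Trim30 and Trim34 genes on chromosome 7 encode RING-type ubiquitin ligases, several of which act against retroviruses, and the Serpina3 genes on chromosome 12 encode proteins of the serpin (serine protease inhibitor) family, a cluster that expanded in rodents. Long noncoding RNAs vary more in sequence between strains than coding genes do, and most of those named here have no known role in the retina.

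The libraries held 29701483 to 60145034 counts on genes. Levels are given as counts, and as CPM (counts scaled to a common library size of 1e6) after scaling the libraries by edgeR's trimmed mean of M values. A count of 3 corresponded to 0.0473 to 0.102 CPM, depending on the mouse. The retina markers were high in all mice, and their summed level ran from 54923 to 99843 CPM. By Xist and 4 Y-linked genes, mice 4, 7, 8, 10 and 11 were male and the other 7 female, so all 3 controls were female. In whole tissue, fewer cells that express a gene and less RNA per cell cannot be told apart. For each gene the mice were ordered by log2 CPM (prior count 2), and the mice above the largest gap in that order are called its high mice.

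Gm13394 (ENSMUSG00000083773, minus strand, chr2:28933610-28934609 in mm10) is annotated as a processed pseudogene of 1000 bases. Its parent by sequence is Gapdh, which encodes the glycolytic enzyme glyceraldehyde-3-phosphate dehydrogenase and lies on chromosome 6. Over 1000 aligned bases the annotated transcripts were 99.9% identical and differed by a single base, A346C (the Gapdh base, the position counted from 1 at the start of the Gm13394 transcript, and the Gm13394 base). The reading frame of Gm13394 encodes 333 residues, the same protein as Gapdh. The stretch around that base is shown because the base is all that tells the transcripts apart over the aligned part. The differing base is in capitals:
Gm13394: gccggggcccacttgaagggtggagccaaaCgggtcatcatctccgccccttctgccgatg
Gapdh: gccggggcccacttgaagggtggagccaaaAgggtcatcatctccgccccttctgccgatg
Of the 951 windows of 50 bases (the read length) in Gm13394, 901 were also found in annotated transcripts of other genes, 222 genes in all. The 50 windows found only in Gm13394 (5.26%) all covered the differing base. Counts for this gene therefore depend on reads over a very short part of it.

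Gm13394 had the most contrasting levels of the set. The P30 mice 1, 2 and 3 had 9006, 6059 and 17 counts. In the P32 mice 4 to 6 there were 4172, 5211 and 5525 counts. The P34 mice 7 to 9 had 21, 12 and 10 counts, and the P38 mice 10 to 12 had 30, 21 and 14. Mice 1, 2, 4, 5 and 6 were thus high and lay close together, at 122 to 142 CPM (median 135). The other 7 mice lay at 0.294 to 0.728 CPM, and the lowest high mouse was 168-fold above the highest low one. The largest gap was 7.30 log2 units, which ranked 5 among the 18628 genes tested. No low mouse was at 0 counts.

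Counts assigned to Gapdh itself did not follow this pattern. They were 1123, 993 and 643 in mice 1 to 3, 278, 634 and 714 in mice 4 to 6, 346, 616 and 360 in mice 7 to 9, and 426, 625 and 614 in mice 10 to 12. Of the 4598 distinct windows of 50 bases pooled over the annotated Gapdh transcripts, 74.9% were found in no other gene. Of the 951 windows of Gm13394, however, 901 were also found in other genes, Gapdh among them. The pooled share therefore does not show how much of the Gapdh messenger RNA can be read uniquely. Gm13394 held 6.10 to 15.0 times as many counts as Gapdh in its 5 high mice, and 0.0195 to 0.0704 times as many in the 7 low mice. The largest gap of Gapdh was 0.27 log2 units. Gapdh is one of the most used enzymes of every cell, and these counts show only the reads that aligned to it uniquely. The values relative to Gm13394 are therefore ratios of counts and not of RNA levels.

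Gm6969 (ENSMUSG00000066553, minus strand, chr12:24638669-24639010) is a processed pseudogene of 342 bases. It was closest to Cox7a2l on chromosome 17, which encodes an assembly factor of mitochondrial respiratory supercomplexes. Cox7a2l is known to exist in a short form in C57BL/6 mice and a longer form in other strains, 129 among them. In the mm10 annotation Gm6969 holds 6 bases (positions 214 to 219 of its transcript) that the Cox7a2l transcript lacks, followed by T220A, and a further change at C309T (the Cox7a2l base, the position in Gm6969, the Gm6969 base). Its reading frame encodes 113 residues against 111 for Cox7a2l. The stretch with the added bases is shown because a read must cross it, or the change further on, to be told from Cox7a2l. Added and differing bases are in capitals:
Gm6969: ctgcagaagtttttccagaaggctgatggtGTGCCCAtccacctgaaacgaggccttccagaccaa
Cox7a2l: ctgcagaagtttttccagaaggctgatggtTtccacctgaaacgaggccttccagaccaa
Of 293 windows of 50 bases, 90 (30.7%) were found only in Gm6969, and all 90 covered one of these differences. The rest were shared with Cox7a2l alone.

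Counts for Gm6969 were 236, 199 and 4 in the P30 mice 1 to 3 and 144, 150 and 148 in the P32 mice 4 to 6. They were 4, 5 and 2 in the P34 mice 7 to 9, and 242, 176 and 131 in the P38 mice 10 to 12. The low mice were mouse 3 and all 3 P34 mice. The 8 high mice lay at 3.65 to 5.87 CPM and the 4 low mice at 0.0677 to 0.122 CPM, 29.8-fold apart at the nearest. Cox7a2l had between 1655 and 4396 counts in every mouse and no such gap (0.16 log2 units). Gm6969 took 3.76% to 8.05% of the counts of the pair in the high mice and 0.116% to 0.205% in the low mice. Whether the allele of Cox7a2l differed between these mice was not tested, since no genotype of the locus was measured.

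**Figure D1:**
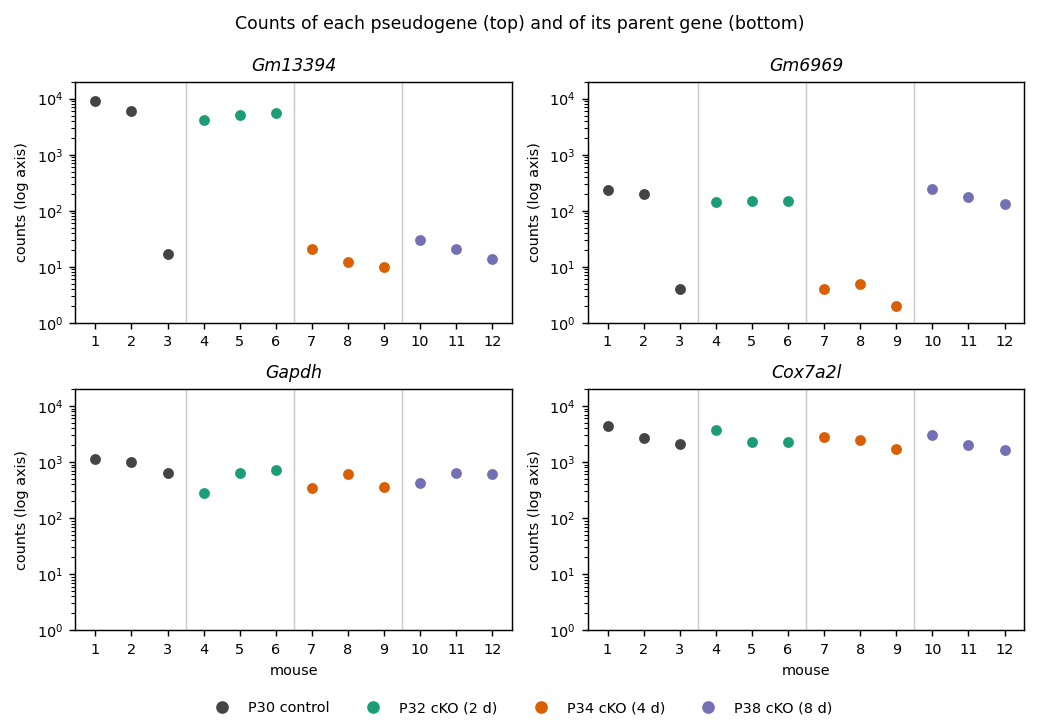
Counts per library (log axis) of Gm13394 and Gm6969 (top) and of their parent genes Gapdh and Cox7a2l (bottom) in mice 1 to 12, 1 point per mouse, coloured by condition. The pseudogenes fall into high and low mice, whereas Gapdh stays between 278 and 1123 counts and Cox7a2l between 1655 and 4396.

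Long noncoding RNA genes made up 3 further members, and 2 of them shared their high mice. Gm14268 (ENSMUSG00000087617, minus strand, chr2:166380828-166398187) is annotated as a long intergenic noncoding RNA. Its counts were 881, 756 and 28 in mice 1 to 3, 27, 43 and 541 in mice 4 to 6, 31, 40 and 28 in mice 7 to 9, and 38, 33 and 22 in mice 10 to 12. It was high in mice 1, 2 and 6 (13.3 to 15.3 CPM). The other 9 mice were low but not silent, at 0.747 to 1.11 CPM, 12.0-fold below the lowest high mouse at the nearest. All of its windows of 50 bases were found in no other gene.

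Gm14216 (ENSMUSG00000085691, minus strand, chr2:154722352-154738451) is also a long intergenic noncoding RNA, 11.7 Mb from Gm14268 on the same chromosome. It had 47, 30 and 53 counts in mice 1, 2 and 6 and 0 counts in the other 9 mice. The high mice, at 0.606 to 1.31 CPM, were at least 5.95-fold higher than a floor of 3 counts in each low library. This floor covers counting error only. The same 3 mice were thus high for both genes, in 12 of 12 mice the same state, although no tested gene within 5 Mb of either shared that state past a gap of 2 log2 units. All of its windows were also found in no other gene.

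A830036E02Rik (ENSMUSG00000084890, plus strand, chr11:99416956-99425497) is annotated as an antisense RNA, and it overlaps Krt12, the gene of a keratin of the corneal epithelium, on the opposite strand. Its counts were 0, 83 and 49 in mice 1 to 3, 30, 55 and 67 in mice 4 to 6, 0, 57 and 0 in mice 7 to 9, and 0, 67 and 49 in mice 10 to 12. The 8 high mice lay at 0.900 to 1.68 CPM, at least 8.86-fold higher than the floor of 3 counts in the low mice 1, 7, 9 and 10. Krt12 had 295, 38 and 11 counts in mice 1 to 3, 294, 317 and 11 in mice 4 to 6, 8, 83 and 15 in mice 7 to 9, and 36, 13 and 43 in mice 10 to 12. Mouse 1, with 295 Krt12 counts, had none for A830036E02Rik, so the levels of the pair did not move together. The libraries were stranded, but the strand setting of the counting is not given in the sources used here. Without it, reads of the overlap cannot be assigned to one strand with certainty.

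Gm5148 (ENSMUSG00000058174, minus strand, chr3:37714190-37724490) is annotated as protein coding, with no role known. It was low in most mice, with 3 to 6 counts in 8 of them. Mouse 3 of the P30 group had 257 counts, the P34 mice 7 and 8 had 145 and 167, and the P38 mouse 12 had 130. These 4 high mice came from 3 conditions and lay at 4.00 to 7.64 CPM, 25.8-fold above the low mice (0.0631 to 0.155 CPM) at the nearest. Mouse 3, a control, stood above the other high mice, which lay between 4.00 and 4.41 CPM. One transcript of Gm5148 holds 427 bases that are identical to Rps23, a ribosomal protein gene on chromosome 13, on the opposite strand. On the same strand, that transcript is 99.5% identical over 420 bases to C330021F23Rik, annotated as protein coding. Of all windows of Gm5148, 90.4% were found in no other gene. Rps23 counts lay between 26 and 111 in all mice, and its largest gap was 0.33 log2 units.

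Trim12a (ENSMUSG00000066258, minus strand, chr7:104299894-104315466) lies in the Trim cluster. Its closest relatives are Trim12c, with 96.5% identity over 980 aligned transcript bases, and Trim5, with 97.0% over 952 bases. Even so, 89.5% of its windows of 50 bases were found in no other gene. A stretch of 60 bases is shown because it carries several of the bases by which a read of Trim12a is told from its neighbours. In it Trim12a differs from Trim12c at 6 bases and from Trim5 at 5. Bases that differ among the 3 genes are in capitals:
Trim12a: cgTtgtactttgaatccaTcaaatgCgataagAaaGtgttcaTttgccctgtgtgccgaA
Trim12c: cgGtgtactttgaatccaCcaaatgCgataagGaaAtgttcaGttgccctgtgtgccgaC
Trim5: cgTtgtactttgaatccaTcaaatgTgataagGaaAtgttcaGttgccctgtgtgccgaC

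Trim12a was read in 6 mice and not in the other 6. The P30 mice 1, 2 and 3 had 0, 40 and 42 counts, and the P32 mice 4 to 6 had 0 each. The P34 mice 7 to 9 had 60, 49 and 0 counts, and the P38 mice 10 to 12 had 39, 54 and 0. High mice lay at 0.808 to 1.66 CPM, at least 7.93-fold higher than the floor of 3 counts. Of its relatives, Trim5 was too low to be tested but lay on the same side, with 9, 7, 5, 4, 10 and 10 counts in the 6 high mice of Trim12a and 0 or 1 in the other mice. Trim34a also had its largest gap between the same sets of mice, but a small one (0.74 log2 units): 34, 21, 39, 23, 21 and 40 counts in the high mice of Trim12a and 2 to 11 in the others. Trim12c, in contrast, was read in all mice, at 78 to 167 counts and with a largest gap of 0.37 log2 units. Reads that align equally well to several family members were left out of the counts, so the values of Trim12a and Trim5 cover only reads told apart by such bases and are uncertain to that degree.

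Among all other genes tested, Myo7a alone had the same high mice as Trim12a past a gap of 2 log2 units. Myo7a encodes an unconventional myosin of the retinal pigment epithelium, photoreceptors and hair cells that is mutated in Usher syndrome, and it lies 6.25 Mb from Trim12a on the same chromosome. Its counts were 1199, 1053, 763, 955, 972 and 986 in mice 2, 3, 7, 8, 10 and 11, and 170, 65, 99, 47, 47 and 37 in mice 1, 4, 5, 6, 9 and 12. The gap was 2.95 log2 units. Rps13-ps1, a processed pseudogene on chromosome 8 that matches 447 of 448 aligned bases of the ribosomal protein gene Rps13, had the exact opposite pattern and a gap of 5.78. It was read at 573, 629, 301, 243, 399 and 398 counts in mice 1, 4, 5, 6, 9 and 12 and at 0 to 2 counts in the 6 high mice of Trim12a. Rps13 itself is on chromosome 7 and had 94 to 383 counts in all mice. Neither Myo7a nor Rps13-ps1 passed the edgeR test against P30 at any age: for Myo7a at P32 the log2 fold change was -3.35 (SE 1.16, edgeR adjusted p = 0.70).

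Serpina3f (ENSMUSG00000066363, plus strand, chr12:104214544-104221129) encodes a serpin. Its counts were 0, 61 and 41 in mice 1 to 3, 0, 23 and 0 in mice 4 to 6, 28, 29 and 40 in mice 7 to 9, and 47, 35 and 31 in mice 10 to 12. The 9 high mice lay at 0.594 to 1.35 CPM, at least 6.61-fold higher than the floor of 3 counts in the low mice 1, 4 and 6. Its transcript was 92.2% identical to Serpina3h over 1224 bases, 88.6% to Serpina3g over 1757 bases and 78.5% to Serpina3n over 1976 bases. In all, 89.4% of its windows of 50 bases were found in no other gene.

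Neighbours of Serpina3f shared its low mice. Serpina3m, 0.124 Mb away, had 0, 0 and 1 counts in mice 1, 4 and 6 and 13 to 49 in the other mice, a gap of 2.37 log2 units. It was the one gene within 5 Mb of any member that had the member's split past a gap of 2, out of 97 genes counted around Serpina3f. Serpina3n, an inhibitor much used as a marker of reactive astrocytes and Müller glia and 0.192 Mb away, had the same mice low but far from 0. It had 442, 172 and 128 counts in mice 1, 4 and 6 and 653 to 2574 in the others, a gap of 1.41. Serpina3k, whose gene model overlaps Serpina3m so that reads of the overlap can be left out as ambiguous, had 0 counts in mice 1, 4 and 6 and 2 to 10 in the others, too few to be tested. Serpina3g, among the closest relatives of Serpina3f in sequence, did not share the split, with 18 to 59 counts in all mice. Away from chromosome 12, Gm20186, a long noncoding RNA on chromosome 6, had the same 9 mice high at 7 to 40 counts and the 3 low mice at 0, a gap of 2.21.

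**Figure D2:**
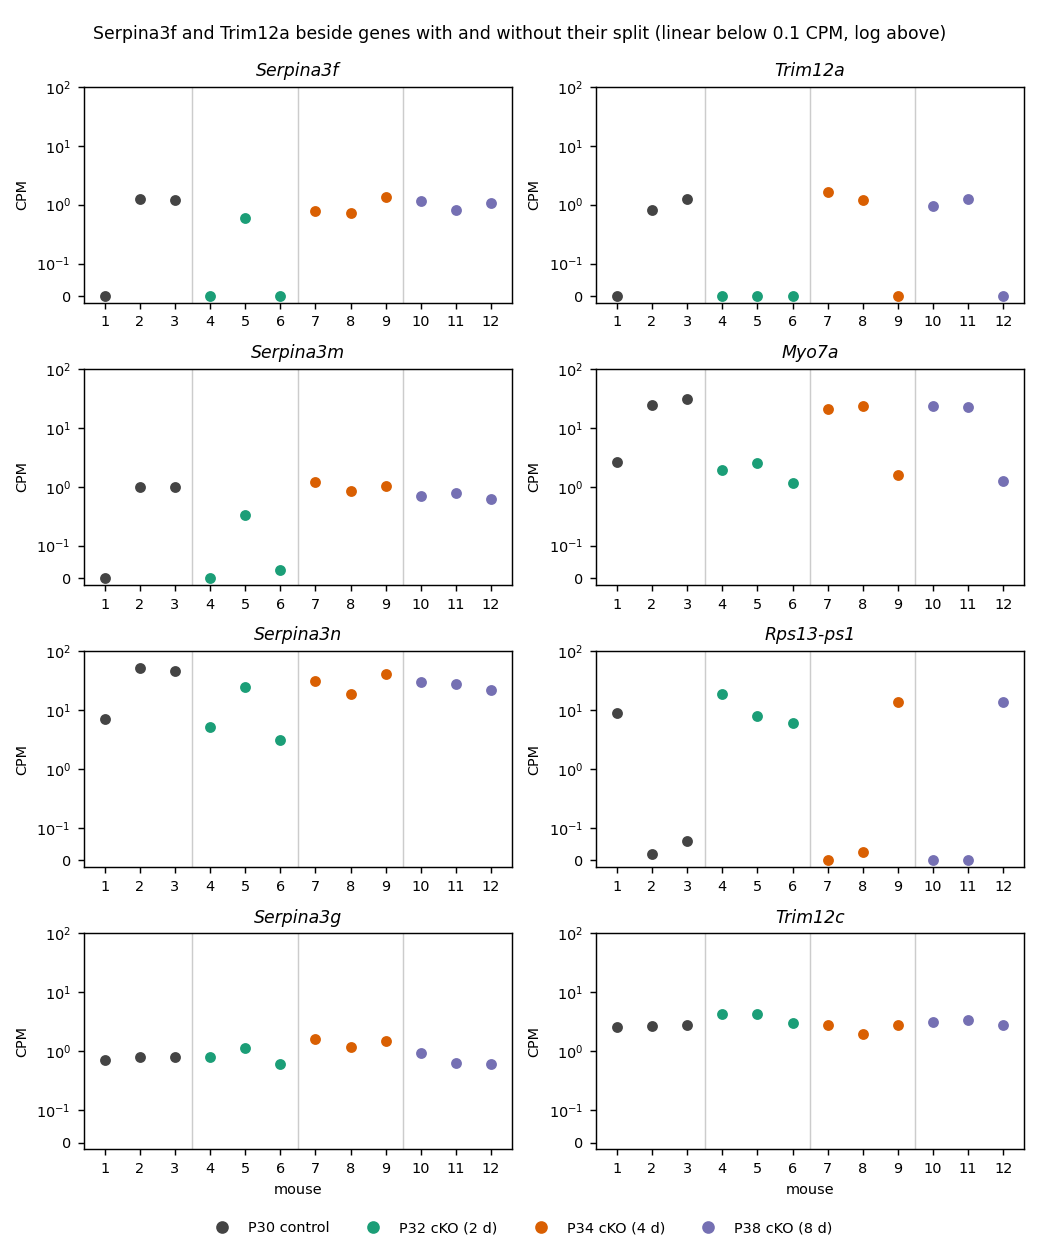
CPM per mouse (linear below 0.1, log above) of Serpina3f, Serpina3m, Serpina3n and Serpina3g (left) and of Trim12a, Myo7a, Rps13-ps1 and Trim12c (right), 1 point per mouse, coloured by condition. Serpina3m and Serpina3n are lowest in mice 1, 4 and 6 like Serpina3f, Myo7a follows Trim12a and Rps13-ps1 mirrors it, whereas Serpina3g and Trim12c do not share these splits.

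The high mice of one gene lay close together. The highest high mouse was 1.14-fold above the lowest in Gm14268, 1.16-fold in Gm13394 and at most 2.28-fold, in Serpina3f. Compared per length, as median CPM per kilobase of exon in the high mice, levels ran from 0.212 in Trim12a and 0.251 in A830036E02Rik to 14.4 in Gm14268 and 135 in Gm13394. The full exon length was used, although the share of windows found in no other gene ran from 5.26% in Gm13394 to 100% in Gm14268. These values are therefore not on a common footing between genes. In 4 of the 8 genes (Gm14216, Trim12a, A830036E02Rik and Serpina3f) every low mouse was at 0 counts. The low mice of the other genes all kept counts: 10 to 30 in Gm13394, 3 to 6 in Gm5148, 22 to 43 in Gm14268 and 2 to 5 in Gm6969.

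**Figure D3:**
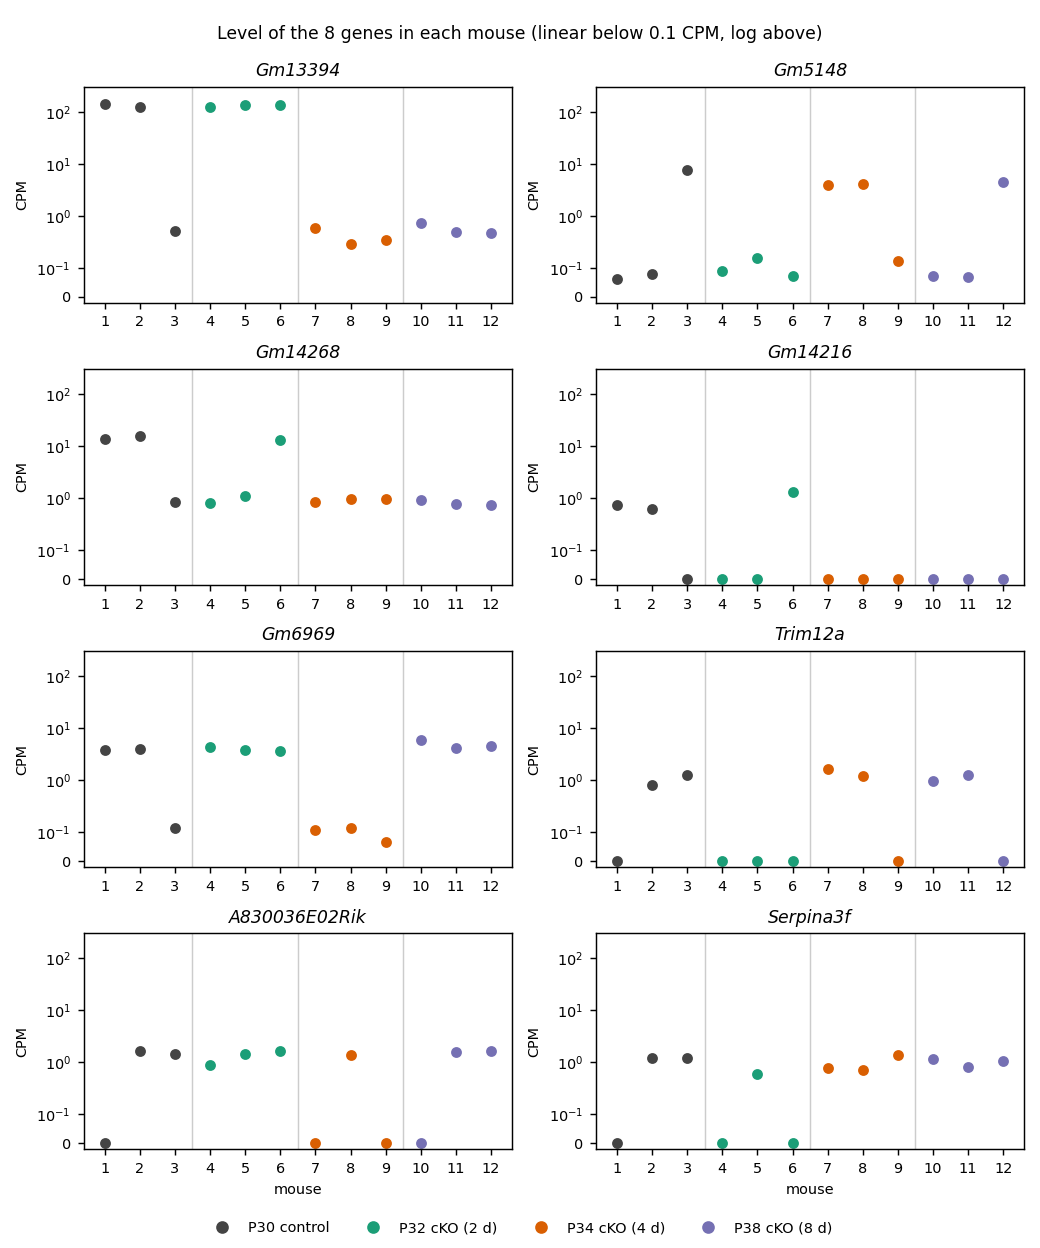
CPM of the 8 genes in each of the 12 mice (linear below 0.1, log above), 1 point per mouse, coloured by condition. In each panel the mice fall into a high and a low set with an empty range between them, widest for Gm13394 (122 against 0.728 CPM).

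The 8 genes gave 7 different sets of high mice, only Gm14268 and Gm14216 sharing one. All 8 were high in some control mice and low in others. Mouse 1 and mouse 2, both female controls, differed in Trim12a, A830036E02Rik and Serpina3f. Mouse 3 was the low control for Gm13394, Gm14268, Gm14216 and Gm6969, and the one high control for Gm5148. Mouse 2 was high for 7 of the 8 genes and mouse 9 for 1, Serpina3f, and the other mice for 3 to 5. Over the 28 pairs of genes, 2 to 12 of the 12 mice had the same state. Gm6969 and Serpina3f, both on chromosome 12 and 79.6 Mb apart, had the same state in 5 mice. High mice of each sex were found for 6 of the genes, whereas the 3 high mice of Gm14268 and Gm14216 were all female.

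**Figure D4:**
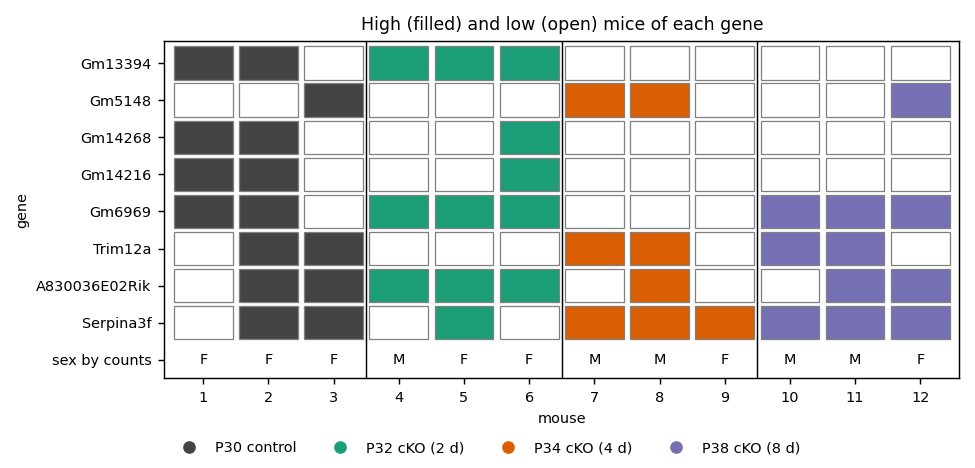
High (filled) and low (open) state of the 8 genes (rows) in mice 1 to 12 (columns), coloured by condition, with the sex read from Xist and Y-linked counts below (M, male; F, female). Each row has a different filled set except Gm14268 and Gm14216, and every row holds both states among the 3 P30 controls.

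Set against condition, the genes were not all alike. Gm5148 and Trim12a had both states in 3 of the 4 conditions, and so did A830036E02Rik. Gm13394 and Gm6969 had both states only among the controls: Gm13394 was high in all 3 P32 mice and low in all 6 later mice, and Gm6969 was low in all 3 P34 mice and high in the other 6 cKO mice. Trim12a was low in all P32 mice, A830036E02Rik high in all P32 mice, and Serpina3f high in all P34 and P38 mice. Gm14268 and Gm14216 were low in all 6 P34 and P38 mice, and Gm5148 was low in all 3 P32 mice. The set had been put together as unrelated to condition. All 8 genes did have both states among the controls, but each was uniform within at least 1 cKO age, and Gm13394 and Gm6969 within every one.

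An edgeR fit of all 12 mice, in which the 8 genes are given only as a description since they were chosen from the same counts, had a call made where the adjusted p did not exceed 0.05 and the log2 fold change was 0.5 or more in either direction. At P34 against P30, 2 of the 8 genes passed, Gm13394 and Gm6969, both lower. The background was 0.660% of the 18628 genes tested (123 genes, all lower). Nothing is read from these calls, which restate the pattern that chose the genes. Gm13394 went from 88.3 ± 76.7 CPM (SD, n = 3) at P30 to 0.404 ± 0.154 at P34, a log2 fold change of -7.76 (SE 1.40). At P38 it stood at 0.565 ± 0.141 CPM, a log2 fold change of -7.27 (SE 1.34) that was not called. Gm6969 went from 2.62 ± 2.17 CPM to 0.10 ± 0.029 at P34, a log2 fold change of -4.65 (SE 0.92), and was at 4.82 ± 0.93 CPM at P38. In both genes mouse 3, a control, lay with the P34 mice. Without one of mice 2, 7, 8, 9, 10 or 11 Gm13394 was not called, and Gm6969 stayed called only without mouse 3 or mouse 6. With each mouse left out in turn the log2 fold change itself stayed between -8.35 and -7.24 for Gm13394 and between -5.21 and -4.23 for Gm6969.

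At P32 and P38 none of the 8 passed, against 0 genes of the 18628 (0%) called by edgeR at either age, with 1050 genes at P32 and 1051 at P38 at an unadjusted p under 0.05. DESeq2 called 25 and 45 genes at these ages, of which Gm13394 at P38 was the one member. At P32, P34 and P38 the 8 genes had medians of -0.52, -2.25 and -0.36 on the log2 scale, beside -0.01, 0.00 and -0.01 over all genes tested. In a test for any difference among the 4 conditions, 1 of the 8 passed (Gm13394), against 0.344% of all genes. The other 6 genes had both small and large estimates, with SEs of 0.97 to 3.21. The log2 fold change of Trim12a was 0.55 at P34 and 0.20 at P38, and that of A830036E02Rik was 0.38 at P32 and 0.06 at P38. With each mouse left out in turn, these took both signs. Trim12a ran from -0.08 to 1.29 at P34 and from -0.43 to 0.95 at P38. A830036E02Rik ran from -0.24 to 0.96 at P32 and from -0.55 to 0.67 at P38. Trim12a at P32, with 0 counts in all 3 mice against 0.685 ± 0.633 CPM at P30, was not called, nor was Serpina3f there (0.198 ± 0.343 against 0.817 ± 0.707 CPM, log2 fold change -1.96, SE 1.26). This estimate of Serpina3f rests on mouse 5, without which it was -8.00. For Gm14268 the estimates were -3.43 (SE 1.10) at P34 and -3.62 (SE 1.11) at P38, from 2 high controls of 3. Neither was called, but the P34 estimate passed once every gene with at least 1 count was kept in the fit. These 3 comparisons share the control mice.

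A split of this kind was not common. Over all genes tested, 170 (0.913%) had a largest gap of at least 2 log2 units with 2 or more mice on each side, and 58 (0.311%) a gap of at least 3, as all 8 members had. A gap of at least 1 was found in 2.60% of genes. Among the fixed lists, a gap of at least 2 was found in 7 of 8 lens genes, 3 of 8 pigment epithelium genes and 2 of 4 tested smooth muscle genes. It was also found in 2 of 5 skeletal muscle genes and in Xist and the 4 Y-linked genes. No retina, microglia, reactive glia or interferon response gene had one. By annotated type, 9 of 630 processed pseudogenes (1.43%), 9 of 717 long intergenic noncoding RNAs (1.26%), 9 of 616 antisense RNAs (1.46%) and 130 of 14985 protein coding genes (0.868%) split past a gap of 2. The members' own ranks ran from 5 (Gm13394) to 32 (Gm14268). The high set most often found among the 170 genes was mice 1, 3, 4, 5, 10 and 11 (31 genes), which was the set of no member.

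Around the members on the chromosome, most genes were read evenly over the mice. Within 1 Mb, 7 (Trim12a) to 40 (A830036E02Rik) other genes were tested. Gaps of 2 or more were found near A830036E02Rik, for Top2a and Krt19, which had mice 1, 3, 4, 5, 10 and 11 high and so not its split, and near Serpina3f, for Serpina3m. Near the other 6 members no gene within 1 Mb reached a gap of 1. The median gap of the neighbours was 0.14 to 0.60 log2 units. No neighbour within 1 Mb of any member was called lower at any age. The splits of Gm13394, Gm5148, Gm14268, Gm14216, Gm6969, Trim12a and A830036E02Rik were thus seen in that gene and in no tested neighbour within 5 Mb past a gap of 2.

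**Figure D5:**
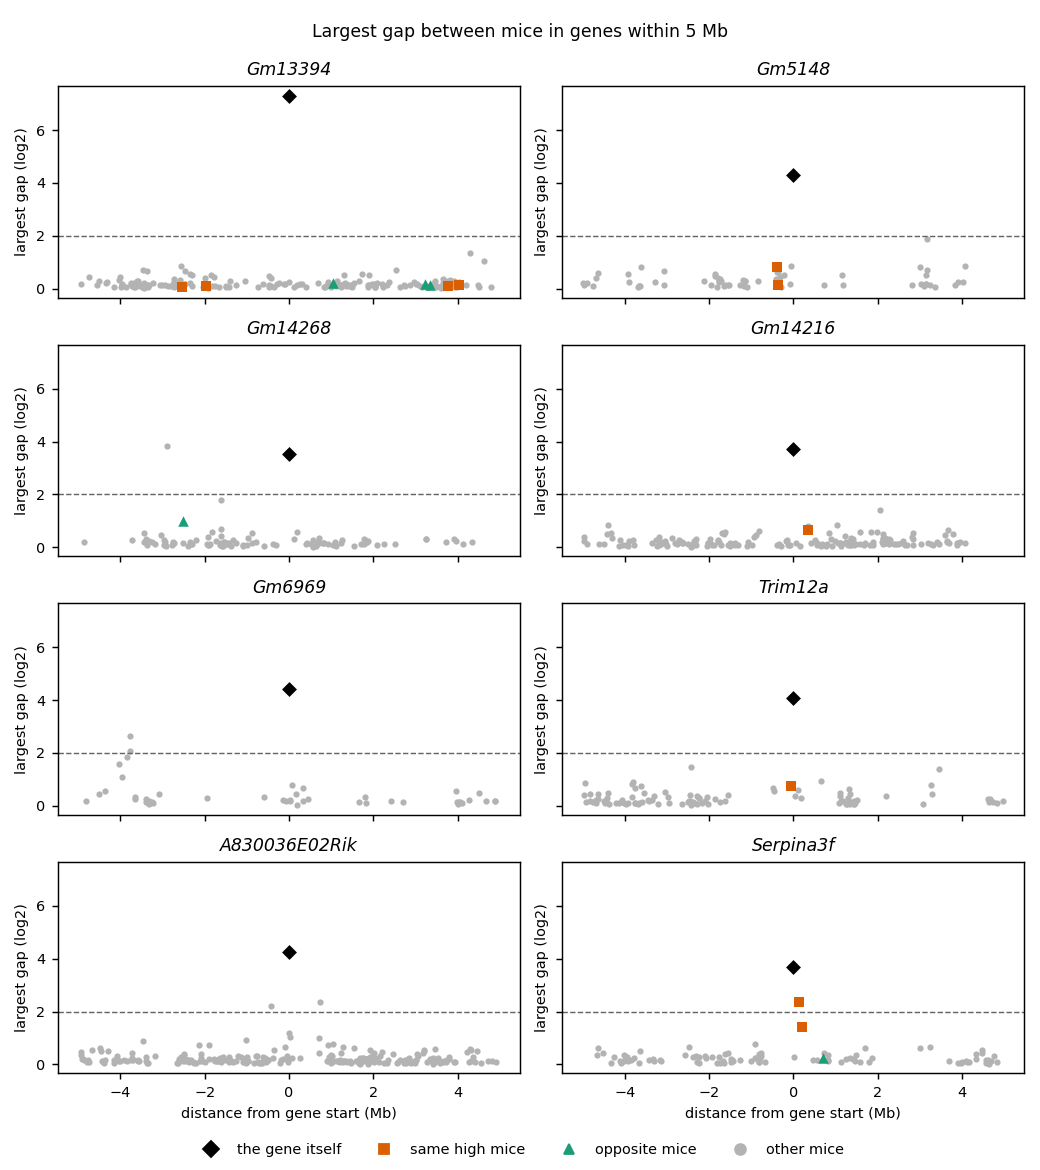
Largest gap between mice (log2 units) of each tested gene within 5 Mb of each of the 8 genes, by distance from the start of the gene (Mb). Diamonds are the genes themselves, squares genes with the same high mice at any gap, triangles genes with the opposite mice and grey points the rest; the dashed line marks a gap of 2, which among squares Serpina3m alone passes, near Serpina3f.

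The groups that these members belong to, or could be read with, are given by their counts, beside 0% of all genes tested called at P32 and P38 and 0.660% at P34. At these shares a list of this size would be called rarely, so a count of 0 says little of the list. Of the other 12 Trim cluster genes 7 were tested and none was called at any age, and the same held for the 3 tested among the other 22 Serpina cluster genes. Of 22 interferon response genes, which include antiviral effectors such as Ifit1, none was called by edgeR at any age. Their median log2 fold changes were 0.33, 0.14 and 0.01 at the successive cKO ages, and their summed level lay between 141 and 246 CPM in all mice. No microglia marker of 12 was called. Of 8 reactive glia genes, 1 was called lower at P34, the complement gene C4b (edgeR adjusted p = 0.041), a call lost without any one of mice 2, 3, 7, 8, 9, 10 or 11.

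Markers of other tissues of the eye differed between mice. The summed level of 8 lens genes ran from 280 to 45585 CPM, of 5 smooth muscle genes from 9.11 to 197 CPM, and of 8 pigment epithelium genes from 504 to 948 CPM. At P34, where Gm13394 and Gm6969 were called, all 4 tested smooth muscle genes (Myh11, Acta2, Tagln and Myl9) were also called lower. So were 2 of the 8 pigment epithelium genes (Tyrp1 and Mlana), against 0.660% of all genes tested. These 6 calls were all lost without any one of the same 7 mice. No lens gene of 8 was called at P34, nor was any of 5 skeletal muscle genes, whose summed level ran from 5.14 to 91.9 CPM over the mice. Lens genes lay between 280 and 764 CPM in the 3 P34 mice and between 532 and 39234 CPM in the controls. The part of these tissues in the members' levels was not tested. In the P32 mice, where Gm13394 was high in all 3, the lens genes ran from 749 to 45585 CPM.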

How the data were processed

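Whole-retina RNA of 12 mice (4 conditions of 3) was sequenced by the authors from stranded poly(A) libraries as single reads of 50 bases. According to the submitters' processing notes and the study's methods, reads were aligned to mm10 with STAR 2.5.3a and counted per gene with HTSeq 0.6.1p1. The deposited files hold raw counts per Ensembl gene; reads that aligned to several places (23.7% to 32.2% of reads), to no gene (6.53% to 13.7%) or ambiguously (0.646% to 0.696%) were left out. Gene names and transcripts came from GENCODE M21 on the same build, which named 54079 of 54146 genes (99.9%).

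The 8 genes, the gene lists and the tests were chosen with earlier results of these data known. Counts were fitted in edgeR 4.0.16 (R 4.3.3) with filterByExpr, TMM scaling and 1 mean per condition, by the quasi-likelihood test with Benjamini-Hochberg adjustment over 18628 genes. The genes named were the members, the fixed lists, genes with a member's split and the closest relatives by sequence. Top2a and Krt19 were named after their values were seen. Sequences were compared with blastn 2.17.0 and by exact windows of 50 bases, over annotated transcripts and not over the genome. On simulated counts modelled on the P34 comparison (18404 genes), the test found 77 of 100 genes shifted by 2 log2 units and 49 of 100 shifted by 1, and called 9 of 18004 unchanged genes. The gap scan recovered 175 of 200 simulated splits and called a split in 18 of 18204 other genes. Alternatives were DESeq2 1.42.0, its size factors, other filters, other gaps and prior counts, and leaving out each mouse.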

Additional observations from a re-analysis of the deposited data

How the results depend on the processing

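The high mice of all 8 genes were the same with a prior count of 0.5 and in 12 of 12 fits that left out 1 mouse. The genes were chosen for this pattern and have wide gaps, so this says little beyond that choice. With DESeq2 size factors in place of TMM the members called did not change. With every gene of at least 1 count kept, edgeR called 23, 298, 18 and 413 genes at P32, P34, P38 and for any difference (main values 0, 123, 0 and 64), 6, 18, 6 and 20 genes of the lists and neighbours (0, 7, 0 and 2), 3 members at P34 (2; the added one was Gm14268), 1 at P38 and 3 for any difference (0 and 1). DESeq2 called 25, 369, 45 and 1361 genes, 2, 16, 4 and 31 of the lists and neighbours, and again 1 member at P38 and 3 for any difference. With each mouse left out in turn, the genes called ranged from 0 to 19 at P32, 43 to 213 at P34, 0 to 13 at P38 and 2 to 587 for any difference. Those of the lists and neighbours ranged from 0 to 4, 0 to 10, 0 to 3 and 0 to 15, and the members from 0 to 0, 0 to 2, 0 to 1 and 0 to 3. The cause was not tested. Split genes numbered 58 at a gap of 3 and, in an alternative added after the data were seen, 484 at a gap of 1, and 166 to 189 with a mouse left out. Genes with a member's split numbered 4, 1 at a gap of 3 (Rps13-ps1), 6 at a gap of 1 and 4 to 15 with a mouse left out, 15 without mouse 3. Within 5 Mb there was 1, with 0 at a gap of 3 and 2 at a gap of 1 (Serpina3m and Serpina3n), and 1 to 1 with a mouse left out. No paired analysis was possible because every mouse has its own number and no number is shared between conditions. Depth limits a low mouse of 0 counts to below 3 counts, 0.0473 to 0.102 CPM.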

Other observations

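Chromosome 2, which holds Gm13394, Gm14216 and Gm14268, also carried 10 zinc finger genes between 176.7 and 178.0 Mb that split with a gap of 2.71 to 4.53 log2 units. They were high in mice 1, 2, 6, 10 and 11, the high mice of Gm14216 and Gm14268 and 2 of the P38 mice. These genes were singled out after their values were seen. Zfp970 had a gap of 4.39 and Gm14325 of 4.53.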
